A study of Homo sapiens with 6 samples.

Results

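The genes described here are 9 of the 38843 genes measured in PC-3 cells, an established androgen-independent cell line derived from a bone metastasis of prostate cancer. They comprise 6 mucin genes (MUC1, MUC2, MUC5AC, MUC5B, MUC6 and MUC13) and 3 genes of the carcinoembryonic antigen family (CEACAM1, CEACAM5 and CEACAM6), taken by symbol from the deposited table. The set was selected on the lower read counts of MUC2, MUC6, CEACAM5 and CEACAM6 in treated cells, so the differences of the 9 genes between groups are given as a description, without p-values. The study compared 3 libraries of cells held in 5 µM cepharanthine hydrochloride, a bisbenzylisoquinoline alkaloid salt from Stephania plants, with 3 control libraries. Both groups are labelled genotype WT, were grown in DMEM with 10% fetal bovine serum and were collected on day 3, and the vehicle given to control cells is not given in the sources used here. All 6 libraries come from 1 cell line and separate cultures are not stated for libraries of the same group, so the spread between them may be technical.

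Mucins are long glycoproteins whose repeats rich in serine, threonine and proline carry dense O-linked sugars. MUC2, MUC5AC, MUC5B and MUC6 are secreted, polymerise through cysteine-rich domains and form the gels of the gut, stomach and airways, while MUC1 and MUC13 stay anchored in the apical membrane. CEACAM proteins are immunoglobulin-like adhesion molecules: CEACAM5 (the tumour marker CEA) and CEACAM6 are held by a lipid anchor, and CEACAM1 spans the membrane and has an inhibitory signalling tail. MUC2, MUC5AC and MUC6 are best known from goblet, surface mucous and mucous neck or gland cells of the gut and stomach, and their transcripts also occur in tumours of other organs.

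The 3 CEACAM genes are close relatives on chromosome 19, and their upstream sequence is shown as a description only. Each line holds the 250 bases before the RefSeq transcription start (GRCh38.p14), written 5′ to 3′ on the gene's own strand, and capitals mark the E-box CACGTG. The windows are chr19:41708376-41708625 (plus strand) for CEACAM5, chr19:41755280-41755529 (plus strand) for CEACAM6 and chr19:42528482-42528731 (minus strand) for CEACAM1.
CEACAM5: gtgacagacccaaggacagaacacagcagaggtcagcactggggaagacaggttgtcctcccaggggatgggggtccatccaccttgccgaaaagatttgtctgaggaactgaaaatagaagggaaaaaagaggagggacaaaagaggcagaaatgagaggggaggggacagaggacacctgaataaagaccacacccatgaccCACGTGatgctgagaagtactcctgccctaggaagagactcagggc
CEACAM6: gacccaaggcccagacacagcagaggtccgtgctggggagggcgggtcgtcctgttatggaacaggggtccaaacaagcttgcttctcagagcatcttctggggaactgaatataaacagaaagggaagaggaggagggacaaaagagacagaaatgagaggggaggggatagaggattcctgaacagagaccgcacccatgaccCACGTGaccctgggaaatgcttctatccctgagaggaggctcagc
CEACAM1: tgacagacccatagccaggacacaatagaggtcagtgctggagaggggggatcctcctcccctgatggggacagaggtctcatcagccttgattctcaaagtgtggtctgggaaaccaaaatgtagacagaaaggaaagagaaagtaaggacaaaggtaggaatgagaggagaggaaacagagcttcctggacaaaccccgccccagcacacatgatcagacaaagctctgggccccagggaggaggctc
In global alignments CEACAM5 and CEACAM6 shared 194 identical bases, CEACAM1 and CEACAM6 180, and CEACAM1 and CEACAM5 178. The letters CACGTG, which read the same on both strands, occurred once in the CEACAM5 window, starting 46 bases before the transcription start, and once in the CEACAM6 window, 45 bases before it. They occurred in 6.49% of 27305 RefSeq windows of this length, 1 per gene, and not in those of CEACAM1, MUC1, MUC2 or MUC13. The GC box GGGCGG, on either strand, was found 4 times before MUC1, once before CEACAM1 and once before CEACAM6, and in 42.3% of all windows. The letters TATAAA, on either strand, were found before MUC1 (starting 24 bases before the start) and CEACAM6 (139 bases before it), and in 11.1% of all windows. A match is a description of these letters and not of a binding site. Any relation of these letters to the differences between groups was not tested. The RefSeq starts of CEACAM5 and CEACAM6 lie inside the gene spans given in the deposited table, whose first bases are at 41708585 and 41750977. The end of the CEACAM5 window and all of the CEACAM6 window are thus within those spans. RefSeq windows were matched by symbol for 6 of the 9 genes, the others being MUC5AC, MUC5B and MUC6.

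Libraries held 53017816 to 68241156 counts in cepharanthine cells and 52774506 to 59241954 in control cells. Among 21965 tested genes, cepharanthine cells had 3219 (14.7%) higher and 2902 (13.2%) lower at an adjusted p under 0.05 (edgeR quasi-likelihood test, Benjamini-Hochberg adjustment over all genes tested). The summed level of 6 markers of PC-3 identity was 333 to 338 FPKM in cepharanthine cells and 243 to 260 FPKM in control cells, where FPKM is the deposited count per kilobase, scaled to library size. The mesenchymal filament gene VIM supplied 199 ± 7.74 FPKM of it with cepharanthine and 114 ± 7.28 FPKM in controls (SD, n = 3 each), and the other 5 genes summed to 132 to 142 FPKM with cepharanthine and 128 to 144 FPKM in controls. Of those 5, the keratin gene KRT8 was higher (log2 fold change 0.25), EPCAM (-0.37) and CD44 (-0.26) were lower, and KRT18 and CDH1 did not pass (edgeR adjusted p = 0.905 and 0.196). The CD44 call was lost without any one library other than control replicate 2, and that of KRT8 without control replicate 3 or any one cepharanthine library, and both were lost under the replicate block (-0.26 for CD44 and 0.25 for KRT8). Summed markers of other cells were 6.78 to 7.77 FPKM with cepharanthine and 13.6 to 15.6 FPKM in controls for 5 fibroblast genes. They were 3.33 to 3.40 FPKM with cepharanthine and 6.28 to 7.79 FPKM in controls for 4 endothelial genes. For the 4 leukocyte genes in the table they were 0.696 to 1.38 FPKM with cepharanthine and 1.43 to 1.55 FPKM in controls. The leukocyte gene PTPRC (0.029 FPKM with cepharanthine and 0.031 FPKM in controls), the endothelial gene CDH5 (0 FPKM with cepharanthine and 0.0091 FPKM in controls) and the fibroblast gene COL1A2 (0.0035 FPKM with cepharanthine and 0.0065 FPKM in controls) were near 0. The leukocyte gene CD14 had 1.02 ± 0.335 FPKM with cepharanthine and 1.40 ± 0.0880 FPKM in controls and did not pass (edgeR adjusted p = 0.223). Some fibroblast and endothelial genes were measured well above 0 and were lower with cepharanthine. COL3A1 had 1.66 ± 0.288 FPKM with cepharanthine and 5.66 ± 0.353 FPKM in controls (log2 fold change -1.83 ± 0.12, edgeR adjusted p = 8.5e-06), and COL1A1 had 5.58 ± 0.504 FPKM with cepharanthine and 8.54 ± 0.769 FPKM in controls (log2 fold change -0.67 ± 0.10, edgeR adjusted p = 8.6e-04). PECAM1 had 2.39 ± 0.258 FPKM with cepharanthine and 5.13 ± 0.448 FPKM in controls (log2 fold change -1.15 ± 0.11, edgeR adjusted p = 8.7e-05), and KDR had 0.945 ± 0.210 FPKM with cepharanthine and 1.96 ± 0.319 FPKM in controls (log2 fold change -1.11 ± 0.18, edgeR adjusted p = 0.00132). The part of these marker genes in the results below was not tested.

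All 9 genes passed the filter on low counts, and 6 of them were lower with cepharanthine at the threshold, beside 13.2% of all genes tested. None was higher, beside 14.7%. All 3 cepharanthine values lay below all 3 control values in the same 6 genes, beside 21.7% of all genes tested. These were the 4 gel-forming mucins and both lipid-anchored CEACAM genes. The median log2 fold change (cepharanthine over control) of the 9 genes was -1.94, and that of all genes tested was -0.02. The choice of the genes used this contrast, so the counts are no separate support for it. In bulk RNA, fewer cells that express a gene and less RNA in each cell cannot be told apart.

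**Figure D1:**
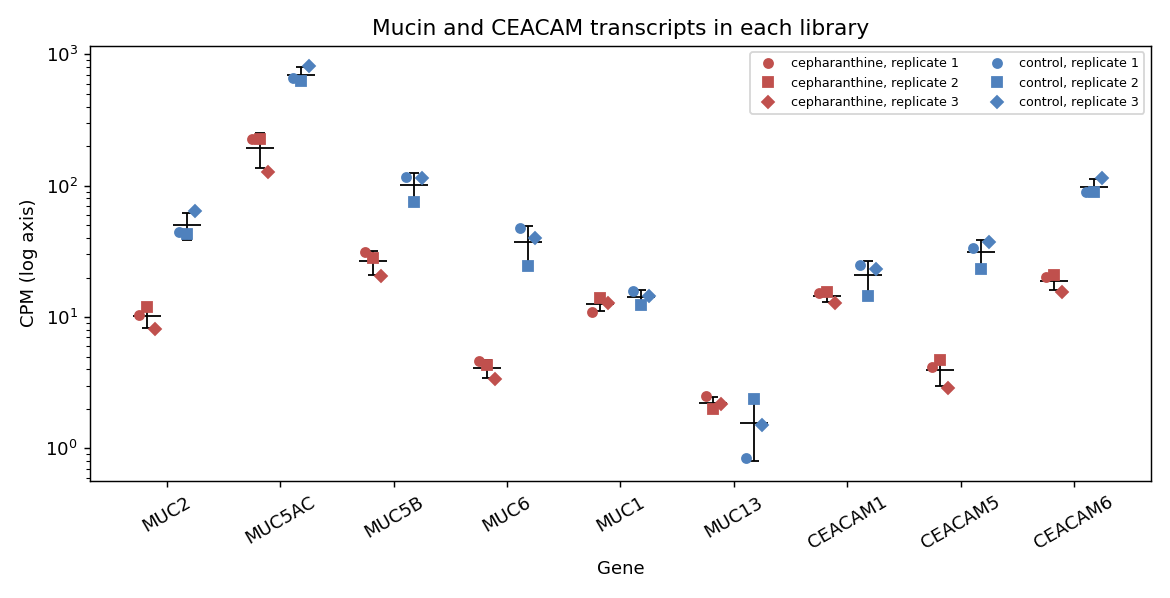
Level of each gene in CPM (counts scaled to library size, log axis) in every library, with cepharanthine in red left of control in blue. Black bars are the mean and SD of 3 libraries. For 6 genes the groups do not overlap, with MUC6 at 3.38 to 4.61 CPM in cepharanthine cells and 24.3 to 47.6 CPM in control cells, while MUC1, MUC13 and CEACAM1 overlap.

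Among the gel-forming mucins, which lie side by side on chromosome 11, MUC6 differed by the largest factor. MUC6 (ENSG00000184956, 11:1012823-1036718 in GRCh38, minus strand), the mucin of gastric glands, had 4.61, 4.33 and 3.38 CPM (counts scaled to TMM-adjusted library size) in cepharanthine cells and 47.6, 24.3 and 40.2 CPM in control cells. Every cepharanthine library lay below every control library, and the log2 fold change was -3.19 ± 0.24 (SE, n = 3 per group). Control replicate 2 was well below the other two control libraries.

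MUC2 (ENSG00000198788, 11:1074875-1110511, plus strand), the main gel-forming mucin of the intestine, had 10.3, 11.8 and 8.17 CPM in cepharanthine cells and 44.7, 42.8 and 63.8 CPM in control cells. The groups did not overlap, and the log2 fold change was -2.32 ± 0.18. MUC5AC (ENSG00000215182, 11:1157953-1201138, plus strand), the mucin of the stomach surface and airway goblet cells, was the most abundant of the 9 genes. It had 229, 227 and 128 CPM in cepharanthine cells and 656, 631 and 820 CPM in control cells. Its log2 fold change was -1.85 ± 0.20, a fall of the mean to 195 ± 57.6 CPM with cepharanthine, against 702 ± 103 CPM in control cells (SD, n = 3 each). MUC5B (ENSG00000117983, 11:1223066-1262172, plus strand), a mucin of airway glands and saliva, had 31.0, 28.2 and 20.4 CPM in cepharanthine cells and 116, 74.9 and 115 CPM in control cells. Its groups did not overlap either, with a log2 fold change of -1.94 ± 0.19.

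Per length, the 4 gel-forming mucins summed to 14.5, 13.5 and 8.75 FPKM in cepharanthine cells and 44.7, 41.5 and 52.1 FPKM in control cells. MUC5AC supplied most of this sum in every library, 80.1 ± 2.28% with cepharanthine and 74.5 ± 3.46% in controls (SD, n = 3 each), and these shares overlapped between groups. The MUC6 share was 3.59 ± 0.552% with cepharanthine and 8.14 ± 2.28% in controls, and its highest cepharanthine value, 4.22%, lay below its lowest control value, 6.20%. MUC5B kept a share of 10.5 ± 1.05% with cepharanthine and 10.1 ± 1.56% in controls. MUC2 supplied 5.89 ± 0.875% with cepharanthine and 7.32 ± 0.670% in controls, with overlapping values. Reads from the tandem repeats of these genes are hard to place, and the sources used here do not say how such reads were counted.

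**Figure D2:**
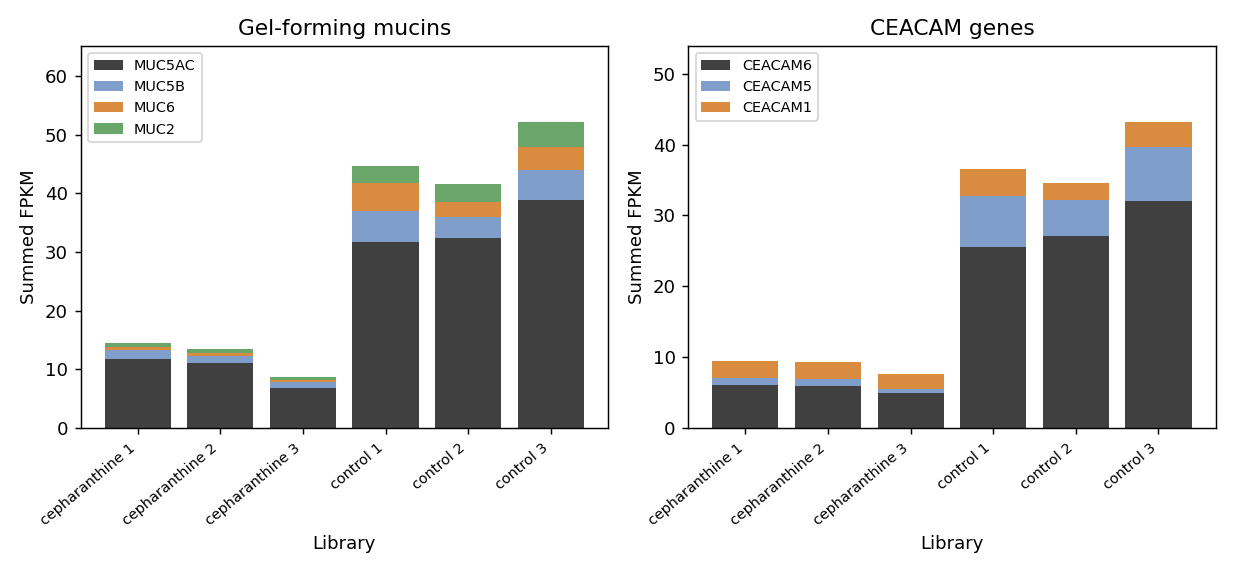
Deposited FPKM of the 4 gel-forming mucins (left) and the 3 CEACAM genes (right), stacked for each library, with the 3 cepharanthine libraries left of the 3 control libraries. MUC5AC makes up most of the mucin sum in each library, and the total is 8.75 to 14.5 FPKM with cepharanthine and 41.5 to 52.1 FPKM in controls.

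The 2 membrane-bound mucins did not pass the threshold. MUC1 (ENSG00000185499, 1:155185824-155192915, minus strand), an apical mucin whose tail takes part in signalling, had 11.02, 14.0 and 12.8 CPM in cepharanthine cells and 15.8, 12.3 and 14.5 CPM in control cells. The groups overlapped and the log2 fold change was -0.17 ± 0.14. MUC13 (ENSG00000173702, 3:124905442-124934751, minus strand) had 2.50, 2.01 and 2.19 CPM in cepharanthine cells and 0.843, 2.38 and 1.504 CPM in control cells. Its log2 fold change was 0.50 ± 0.35, and control replicate 2 lay within the range of the cepharanthine libraries.

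Of the CEACAM genes, CEACAM5 differed by the largest factor. CEACAM5 (ENSG00000105388, 19:41708585-41729345, plus strand) had 4.17, 4.70 and 2.90 CPM in cepharanthine cells and 33.6, 23.0 and 37.0 CPM in control cells. The groups did not overlap and the log2 fold change was -2.99 ± 0.22. CEACAM6 (ENSG00000086548, 19:41750977-41772211, plus strand) had 20.2, 20.8 and 15.6 CPM in cepharanthine cells and 89.7, 89.6 and 114 CPM in control cells. It had the smallest error of the 9 genes, with a log2 fold change of -2.38 ± 0.14. CEACAM1 (ENSG00000079385, 19:42507304-42528481, minus strand) had 15.1, 15.5 and 12.8 CPM in cepharanthine cells and 25.0, 14.4 and 23.3 CPM in control cells. Its log2 fold change was -0.53 ± 0.19, and control replicate 2 lay among the cepharanthine libraries. CEACAM1 did not pass the threshold, but it did as a lower gene without control replicate 2, at -0.74.

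CEACAM6 transcripts outnumbered CEACAM5 transcripts per length in every library, by 6.60, 6.03 and 7.30 times in cepharanthine cells and by 3.61, 5.25 and 4.18 times in control cells. CEACAM1 made up 26.4 ± 1.27% of the summed FPKM of the 3 genes with cepharanthine and 8.44 ± 1.89% in controls (SD, n = 3 each). The coding sequences of this family are similar, and how reads that match several members were assigned is not given in the sources used here, so the split between CEACAM5 and CEACAM6 is uncertain. CEACAM1 also shares 21178 bases with LIPE-AS1 on the opposite strand, which had 429 counts over all 6 libraries, and CEACAM6 shares 14314 bases with AC243967 on the opposite strand, which had 9. MUC1 shares 1449 bases with AL713999 on the same strand, which had 24 counts. Whether counting used strand is not stated, so reads of overlapping genes cannot be told apart.

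The order of levels changed between the groups. In control cells MUC5AC (34.3 ± 3.99 FPKM) and CEACAM6 (28.2 ± 3.34 FPKM) were highest and overlapped each other, above 97.8% and 97.2% of all genes in the table. CEACAM5 (6.64 ± 1.31 FPKM), MUC5B, MUC6, MUC2, CEACAM1 and MUC1 (2.55 ± 0.247 FPKM) followed, each overlapping the next, and MUC13 stood below them at 0.381 ± 0.205 FPKM. In cepharanthine cells MUC5AC (9.86 ± 2.69 FPKM) and CEACAM6 (5.65 ± 0.681 FPKM) were again highest, did not overlap, and lay above 90.1% and 84.2% of all genes. MUC1 (2.35 ± 0.238 FPKM) and CEACAM1 (2.32 ± 0.167 FPKM) came next and overlapped each other, above MUC5B (1.26 ± 0.244 FPKM). CEACAM5, MUC2, MUC13 and MUC6 (0.430 ± 0.0593 FPKM) were lowest, each overlapping the next. MUC1, the eighth gene of the order in control cells, was thus the third in cepharanthine cells, with a nearly equal level.

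Libraries of a group differed together across most of these genes. Cepharanthine replicate 3 was the lowest cepharanthine library for MUC2, MUC5AC, MUC5B, MUC6, CEACAM1, CEACAM5 and CEACAM6. In CPM, control replicate 2 was the lowest control library for every gene but MUC13, though close to replicate 1 for MUC2, MUC5AC and CEACAM6. In FPKM, control replicate 1 was the lowest for MUC2, MUC5AC and CEACAM6. Cepharanthine replicate 3 (68241156 counts) and control replicate 2 (59241954 counts) were the most deeply sequenced libraries of their groups. The part of depth in these levels was not tested. Without either library the 6 genes were still called lower, with log2 fold changes of -1.62 to -3.42 over the 6 fits that each left out 1 library.

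A direct measure of likeness, the root mean square difference of log2 CPM over the 6 libraries after centring each gene on its mean, was taken for the 4 genes that prompted the set. The gene nearest to MUC2 among all tested was CEACAM6 (0.088), followed by SPARC (0.108), a matrix-associated glycoprotein, and TNS4 (0.199), a tensin of focal adhesions. The gene nearest to MUC6 was CEACAM5 (0.186), followed by AC100860 (0.246) and the cartilage collagen gene COL2A1 (0.268). The genes nearest to CEACAM5 were COL2A1 (0.137), MUC6 (0.186) and TNS4 (0.234). The genes nearest to CEACAM6 were SPARC (0.048), MUC2 (0.088) and THAP12P3 (0.158). AC100860 had 0 counts in each cepharanthine library and 24, 13 and 12 counts in control cells, so its distance is set by the prior count of 2 added before taking logs and is no sign of likeness. The measure rests mainly on the difference between the groups, which all of these genes share. MUC2, MUC6, CEACAM5 and CEACAM6 were chosen for their falls on this contrast. Their nearness to each other was thus partly decided in advance and is no separate sign of likeness.

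Genes beside the chromosome 11 mucins had smaller differences than the mucins themselves. The set was chosen for the falls of MUC2 and MUC6 on this contrast, so that comparison was partly decided in advance. Within 250 kb of the mucin span 22 other genes were tested, of which 2 were higher and 8 lower. That is 45.5%, beside 27.9% of all genes tested, and their median log2 fold change was -0.29. CRACR2B, a regulator of store-operated calcium entry, had 18.2 ± 1.14 CPM with cepharanthine and 33.3 ± 2.82 CPM in controls (log2 fold change -0.87 ± 0.10, edgeR adjusted p = 2.2e-04). CHID1, a chitinase-domain protein, fell (-0.66 ± 0.11, edgeR adjusted p = 0.00205), as did AP006623 (-0.78 ± 0.14, edgeR adjusted p = 0.00303). The CHID1 call was lost in 1 of 14 alternative fits. TOLLIP, an adaptor that restrains Toll-like receptor signalling and the first tested gene beyond MUC5B, rose to 50.9 ± 2.32 CPM, against 35.7 ± 0.535 CPM in controls (log2 fold change 0.51 ± 0.08, edgeR adjusted p = 8.5e-04). RPLP2, a ribosomal stalk protein and the most abundant neighbour by FPKM, had 249 ± 34.2 CPM with cepharanthine and 225 ± 23.8 CPM in controls and did not pass (edgeR adjusted p = 0.374). LINC02688, a non-coding gene between MUC6 and MUC2, had 2.33 ± 0.447 CPM with cepharanthine and 3.68 ± 1.47 CPM in controls, with overlapping groups, and was named after its values were seen (edgeR adjusted p = 0.133).

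Within 250 kb of the chromosome 19 CEACAM span 24 other genes were tested, of which 3 were higher and 4 lower. That is 29.2%, near the 27.9% of all genes tested, and their median log2 fold change was 0.21. ARHGEF1, an activator of RhoA, had 84.3 ± 3.48 CPM with cepharanthine and 141 ± 10.1 CPM in controls (log2 fold change -0.74 ± 0.08, edgeR adjusted p = 1.3e-04). ERFL fell as well (-1.04 ± 0.27, edgeR adjusted p = 0.0183), a call lost without control replicate 1 or 3 or cepharanthine replicate 1 or 3 and under the replicate block (-1.02). DEDD2, a death-effector-domain protein, rose by a log2 fold change of 0.53 ± 0.14 (edgeR adjusted p = 0.0174), and this call was lost without cepharanthine replicate 2 or control replicate 3. RPS19, the ribosomal protein gene next to CEACAM6 among those tested, had 236 ± 70.7 CPM with cepharanthine and 160 ± 31.5 CPM in controls and did not pass (edgeR adjusted p = 0.058). It passed without cepharanthine replicate 1 or control replicate 2. Over both windows, the 5 higher genes became 2 without cepharanthine replicate 2 and 3 without control replicate 3, and the 12 lower genes became 7 without control replicate 3.

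**Figure D3:**
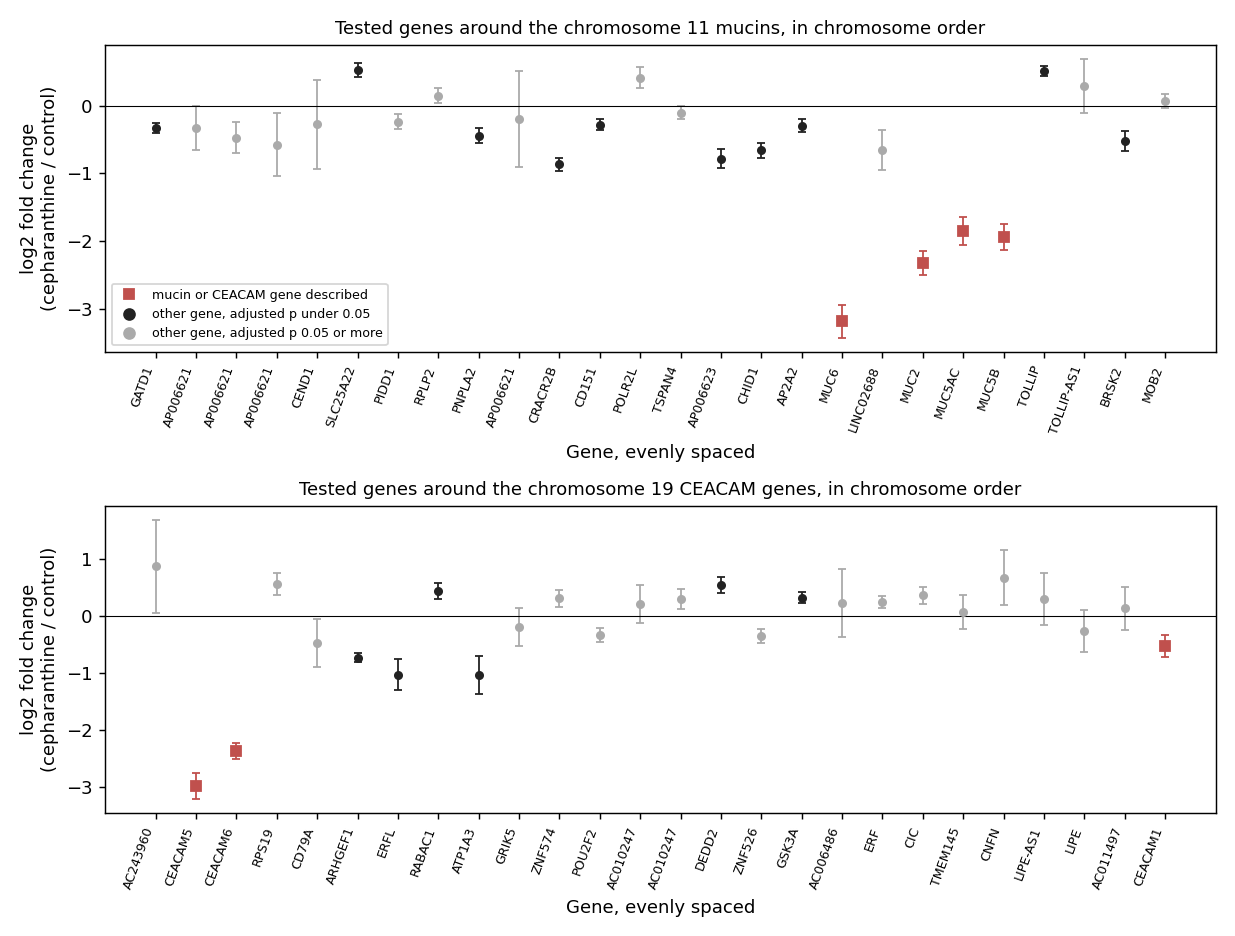
Log2 fold change (cepharanthine over control) with its SE for the tested genes reported within 250 kb of the chromosome 11 mucins (top) and the chromosome 19 CEACAM genes (bottom), evenly spaced in chromosome order. Red squares are the mucin and CEACAM genes described, black circles other genes past the threshold and grey circles the rest. The 4 mucins lie between -3.19 and -1.85, with TOLLIP at 0.51 beside them, and CEACAM5 and CEACAM6 at -2.99 and -2.38.

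Other mucins and mucin-like genes that were tested were lower or did not pass. Of 17 listed, 15 were in the table and 9 were tested. Of those, 5 were lower and 0 higher (55.6%, beside 27.9% of all genes tested), with a median log2 fold change of -0.92. PODXL, a sialomucin of the cell surface with the highest FPKM of the list over all libraries, though below CD164 in cepharanthine cells, had 487, 457 and 463 CPM in cepharanthine cells and 1271, 910 and 1059 CPM in control cells (log2 fold change -1.20 ± 0.11, edgeR adjusted p = 5.8e-05). The membrane mucin MUC12 fell (-1.46 ± 0.30, edgeR adjusted p = 0.00491), as did MUC20 (-0.92 ± 0.18, edgeR adjusted p = 0.00451), whose pseudogene copies can take part of its reads, and OVGP1, an oviductal glycoprotein (-0.68 ± 0.12, edgeR adjusted p = 0.00233). MUC16, the membrane mucin that carries the CA125 antigen and was named after its values were seen, had 0, 0.241 and 0.128 CPM in cepharanthine cells and 1.72, 0.854 and 0.950 CPM in control cells (log2 fold change -3.25 ± 0.83, edgeR adjusted p = 0.0156), and its call was lost without control replicate 1 (log2 fold change -2.86). MUC16 passed the filter on low counts through its control libraries, so it could hardly have been called higher. CD164, a sialomucin with 652 ± 20.1 CPM in cepharanthine cells and 690 ± 49.0 CPM in control cells, did not pass (edgeR adjusted p = 0.47). In limma fits of FPKM, PODXL and OVGP1 were the 2 of these called lower. MUC12, MUC20 and MUC16 were too low to be tested in the limma fits with a filter, and were not called in the one without.

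In the rest of the CEACAM family and the related pregnancy-specific glycoprotein (PSG) genes, 17 of 19 listed were in the table. Of the 6 tested, 4 were lower and 0 higher (66.7%, beside 27.9% of all genes tested), with a median log2 fold change of -1.41. PSG1, PSG4 and PSG6 passed the filter on low counts through their control libraries. A gene that enters in this way can hardly be called higher, so these counts and the median are partly set by the filter. CEACAM19 had 14.1 ± 2.40 CPM in cepharanthine cells and 26.6 ± 6.68 CPM in control cells (log2 fold change -0.92 ± 0.19, edgeR adjusted p = 0.00646). Its call was lost in 1 of 14 alternative fits. Levels of the PSG genes were low. PSG9 had 31, 90 and 46 counts in cepharanthine cells and 271, 148 and 154 counts in control cells, which is 0.950 ± 0.629 CPM with cepharanthine and 3.53 ± 1.37 CPM in controls (edgeR adjusted p = 0.0112). PSG1 had 0.126 ± 0.0681 CPM with cepharanthine and 0.673 ± 0.198 CPM in controls (edgeR adjusted p = 0.0162). PSG6 had 0.139 ± 0.217 CPM with cepharanthine and 1.22 ± 0.657 CPM in controls (edgeR adjusted p = 0.0475). The 4 calls became 2 without cepharanthine replicate 2, cepharanthine replicate 3, control replicate 1 or control replicate 3, and PSG genes are so alike that reads may be split among them. CEACAM3, a granulocyte receptor of the family that was too low to be tested, had 2, 0 and 0 counts in cepharanthine cells and 4, 21 and 21 counts in control cells.

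Genes of mucus-secreting cells moved in both directions, with 6 higher and 6 lower of 22 tested (54.5%, beside 27.9% of all genes tested). The median log2 fold change of the list was -0.24. The trefoil factors, small peptides secreted with mucins, were lower. TFF2 had 46.5, 46.5 and 47.8 CPM in cepharanthine cells and 160, 195 and 148 CPM in control cells, groups that did not overlap (log2 fold change -1.84 ± 0.10, edgeR adjusted p = 5.3e-06). TFF1, with the highest FPKM of the list over all libraries, though below AGR2 in cepharanthine cells, had 55.5, 59.5 and 46.0 CPM in cepharanthine cells and 146, 153 and 152 CPM in control cells (log2 fold change -1.49 ± 0.10, edgeR adjusted p = 9.9e-06). FCGBP, a mucus-associated protein that binds MUC2, fell by 2.68 ± 0.32 on the log2 scale (edgeR adjusted p = 2.4e-04), and SYTL2, a synaptotagmin-like protein of vesicle docking, by 0.85 ± 0.10 (edgeR adjusted p = 2.1e-04). AGR2, an endoplasmic reticulum disulfide isomerase needed for intestinal MUC2 production in mice and named after its values were seen, rose to 364 ± 13.5 CPM, against 182 ± 34.95 CPM in control cells (log2 fold change 0.997 ± 0.12, edgeR adjusted p = 3.2e-04). SPDEF, a goblet cell transcription factor also chosen after its values were seen, had 51.5 ± 9.96 CPM with cepharanthine and 58.9 ± 4.34 CPM in controls and did not pass (edgeR adjusted p = 0.319). The rest of the called genes were likewise named after their values were seen. Higher were VAMP8 (log2 fold change 0.72), RAB27A (0.69), KLF4 (0.56), SPINK1 (0.47) and STXBP2 (0.39), and lower were TFF3 (-1.47) and CREB3L1 (-0.61).

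**Figure D4:**
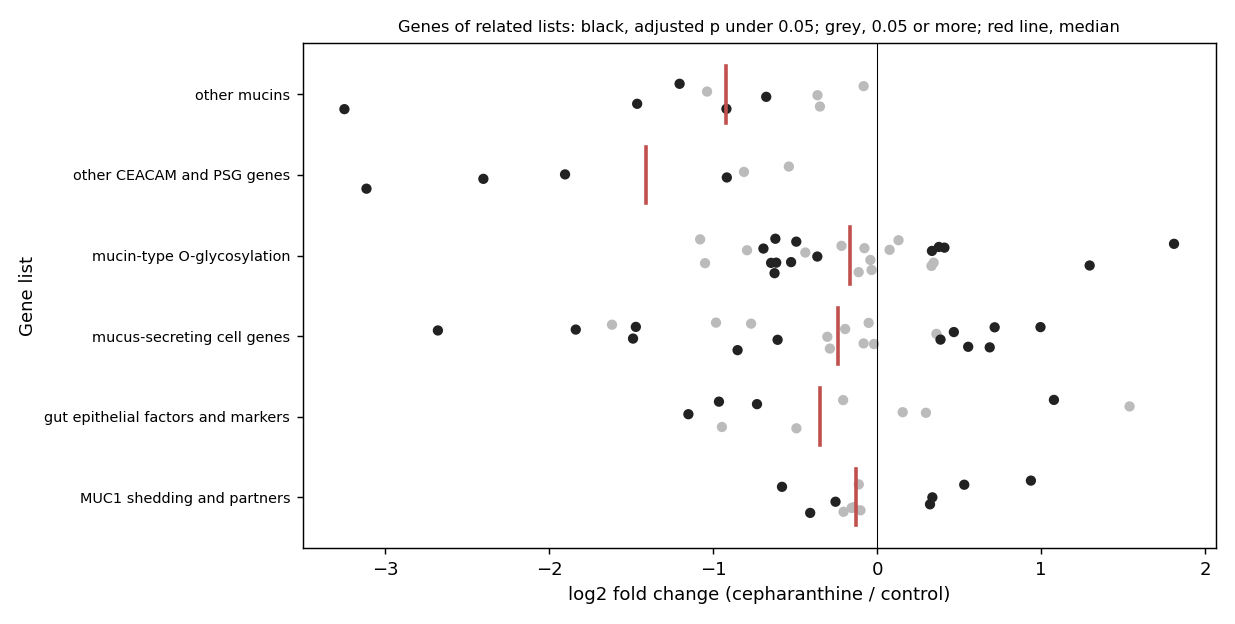
Log2 fold change (cepharanthine over control) of every tested gene of 6 related lists. Black points passed an adjusted p of 0.05, grey points did not, red lines are list medians, and the vertical spread within a list is only for display. All tested genes of the other mucin list and of the CEACAM and PSG list lie below 0, with medians of -0.92 and -1.41, and the other lists reach both sides. In the former lists MUC16, PSG1, PSG4 and PSG6 passed the filter on low counts through their control libraries, which favours a lower value.

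Enzymes that build mucin-type O-glycans also moved in both directions, with 5 higher and 8 lower of 26 tested (50% against 27.9% of all genes). Their median log2 fold change was -0.16. The sialyltransferase ST3GAL1, which caps the core 1 sugar and was the most abundant of the list, had 443 ± 6.53 CPM with cepharanthine and 681 ± 11.7 CPM in controls (log2 fold change -0.62 ± 0.06, edgeR adjusted p = 1.1e-04). GALNT2, one of the transferases that start O-glycans, had 163 ± 6.93 CPM with cepharanthine and 255 ± 10.8 CPM in controls (edgeR adjusted p = 1.6e-04). The core 1 extending enzyme B3GNT3 fell by 0.61 ± 0.10 on the log2 scale (edgeR adjusted p = 0.00175). GALNT12, a transferase of the same family as GALNT2, went the other way, with 25.3, 22.9 and 30.9 CPM in cepharanthine cells and 6.70, 5.47 and 10.4 CPM in control cells (log2 fold change 1.81 ± 0.22, edgeR adjusted p = 3.0e-04).

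Of gut epithelial factors and markers 18 were in the table and 10 were tested, with a median log2 fold change of -0.35. Called genes were 1 higher and 3 lower, 40% of those tested, beside 27.9% of all genes tested. The transcription factor ONECUT2 had 15.3 ± 0.615 CPM with cepharanthine and 29.8 ± 2.31 CPM in controls (edgeR adjusted p = 1.2e-04). SOX9 had 89.1 ± 9.59 CPM with cepharanthine and 148 ± 16.5 CPM in controls (edgeR adjusted p = 7.9e-04), and the intestinal keratin KRT20 fell by 1.15 ± 0.22 on the log2 scale (edgeR adjusted p = 0.00372). The nuclear receptor HNF4G had 9.78 ± 3.25 CPM with cepharanthine and 4.64 ± 1.88 CPM in controls (edgeR adjusted p = 0.0388), a call lost without any one of control replicates 1, 2 and 3 and cepharanthine replicates 2 and 3, and lost under the replicate block (1.11). KLF5, the most abundant of the list, had 191 ± 5.65 CPM with cepharanthine and 221 ± 34.0 CPM in controls and did not pass (edgeR adjusted p = 0.181), though it did as a lower gene without control replicate 2. The intestinal factors CDX1 and CDX2, too low to be tested and named after their values were seen, were at or near 0 in both groups. CDX1 had 0 counts in each cepharanthine library and 12, 0 and 0 counts in control cells, and CDX2 had 0 counts in each cepharanthine library and 0, 2 and 0 counts in control cells.

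Of 12 genes for MUC1 shedding and signalling partners, all tested, 4 were higher and 3 lower (58.3%, beside 27.9% of all genes tested). Their median log2 fold change was -0.13. LGALS3 (galectin-3), a lectin that binds MUC1 glycans, had 99.6, 101 and 110 CPM in cepharanthine cells and 49.5, 57.7 and 54.6 CPM in control cells (log2 fold change 0.94 ± 0.08, edgeR adjusted p = 4.2e-05). ADAM17, a sheddase of MUC1, rose by 0.53 ± 0.08 (edgeR adjusted p = 8.9e-04), and the membrane metalloprotease MMP14, the most abundant of the list per length, by 0.34 ± 0.07 (edgeR adjusted p = 0.00567). The receptors ERBB2 and ERBB3 fell by 0.58 ± 0.08 (edgeR adjusted p = 6.9e-04) and 0.41 ± 0.08 (edgeR adjusted p = 0.005) on the log2 scale. The ERBB3 call was lost in 1 of 14 alternative fits.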

How the data were processed

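Messenger RNA of PC-3 cells was sequenced in 3 cepharanthine and 3 control libraries. Per the labels' protocols, a SMARTER mRNA-Seq kit was used on 1.2 µg of RNA. The deposited table holds raw counts and FPKM per gene, both named so per the file headers. The submitters' processing notes name GRCm38, mm10 and hg38 without roles, while aligner, counter and strand setting are not stated. Of the gene identifiers 96.8% were in GENCODE 29 (GRCh38), and 99.9% of these overlapped the same gene, so coordinates are GRCh38. Control columns, named differently from the labels, were assigned by group and replicate number.

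After filterByExpr and TMM scaling, counts entered the two-sided quasi-likelihood test of edgeR 4.0.16 in R 4.3.3, adjusted by Benjamini-Hochberg over 21965 genes with a threshold of 0.05. CPM uses TMM-scaled library sizes. The SE is the absolute log2 fold change over the square root of F. A count of 0 allows up to 3 counts, or 0.0440 to 0.0569 CPM by library, for counting error only. Promoter windows were aligned with Biopython 1.88. The fits were also run on simulated counts with known changes, and the outcome is not reported here.

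Members and lists were chosen with earlier results of these data known. Named genes were the 9 members, up to 4 genes of each list or window with the smallest adjusted p past the threshold, the most abundant of each by FPKM, cell markers and the 3 nearest genes by likeness. Some of these are not reported here. The 2 windows count as separate lists. Alternatives were RLE scaling, DESeq2 1.42.0, other filters, a replicate block, leaving out each library, and limma 3.58.1 on log2(FPKM + 1) or log2(FPKM + 0.1) of the deposited FPKM, with a mean FPKM of at least 1 or no filter. A fold change on the log2(FPKM + pseudocount) scale understates that of low genes.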

Additional observations from a re-analysis of the deposited data

How the results depend on the processing

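Over 14 alternatives to the edgeR test, 6 or 7 of the 9 genes were called lower and 0 higher. The seventh was CEACAM1, with DESeq2, with a mean count of at least 50 and without control replicate 2. With limma on log2(FPKM + 1) the log2 fold changes of MUC6, CEACAM5, MUC2 and MUC5B were -1.71, -2.03, -1.36 and -1.31, smaller because of the pseudocount. No paired relation of the libraries is given by the labels, and deviations of same-numbered libraries correlated at 0.0036, -0.0069 and -0.070. With the replicate block 2544 genes were higher and 2294 lower, 6 of the 9 lower, and the gut list had 0 higher in place of 1. Limma on FPKM called fewer genes lower in all, 1897 with pseudocount 1, 1883 with 0.1 and 1333 without a filter, and 2077 higher without a filter. It called 2 other mucins and 1 CEACAM or PSG gene lower in each of these fits, and 7, 7 and 4 neighbours lower in the same order. Without a filter it also gave 5 lower O-glycosylation genes, 1 lower MUC1 partner and 0 higher gut genes, and with pseudocount 0.1 there were 2 higher gut genes. With a mean count of at least 50, 2 CEACAM or PSG genes were lower, and edgeR without a filter called 0 gut genes higher. With each library left out in turn, 2 to 5 CEACAM or PSG genes were lower, 0 to 1 gut genes higher, 2 to 6 neighbours higher and 7 to 12 neighbours lower. Other than the effect of the pseudocount, and of testing fewer genes or libraries, the cause was not tested. Genes with few counts, such as MUC13, MUC16 and the PSG genes, are limited by depth.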
